A study of Bos taurus with 8 samples.

Results

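The glandular stomach and the last part of the small intestine of cattle were compared by RNA-Seq, using the abomasum and ileum libraries of a series of 8 tissues. The abomasum is the true stomach of ruminants, and the ileum is the segment before the large intestine. The study measured transcripts to ask how DNA methylation relates to gene expression. Each tissue was represented by 1 library of total RNA, made into a library with the TruSeq RNA kit and read from a single end. The 6 other libraries, used here as background, came from rumen, uterus (intercaruncular), mammary gland (parenchyma), whole testes, frontal cortex and nucleated blood cells. No treatment was applied. The labels give no age, sex or animal for the RNA. In the methylation part of the study, the abomasum and ileum samples were listed as juvenile females from a Hereford cow and relatives, and the RNA was stated to come from a similar collection of tissues.

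Members were loci of the deposited table that carried an Ensembl transcript identifier, spanned at least 300 bases and had an FPKM of at least 1 in abomasum or ileum. FPKM is the number of fragments scaled by transcript length and by the mapped fragments of the library. Of 36801 loci in the table, 24886 carried an identifier, 22808 of these spanned at least 300 bases, and 13842 were compared. With 1 library per tissue there was no replicate check and no test, and a difference between tissues cannot be told apart from a difference between animals. The identifiers were not paired with gene symbols, so the labelled tissues could not be checked against marker genes, and loci are described by position on the UMD3.1 assembly.

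As background, the abomasal mucosa is lined by mucus-secreting surface cells and holds glands that release acid and pepsin precursors. Ruminant stomachs also secrete lysozyme, which breaks down the walls of bacteria arriving from the rumen. The ileal mucosa is lined by absorptive enterocytes and mucus-secreting goblet cells. In young cattle the ileum also carries long Peyer's patches, which are lymphoid organs rich in B cells. Which of the loci described here belong to these functions was not tested.

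The scaled depth recovered from the table was 13442000 reads in abomasum and 7547000 in ileum, a ratio of 1.78. The ileum value is the less certain, since only 12 of the short loci used for it reached 3 reads. On a transcript of 1000 bases, an FPKM of 1 corresponded to 9.77 reads in abomasum and 5.49 in ileum. A floor of 3 reads, the limit that a count of 0 allows, lay at 0.307 FPKM in abomasum and 0.547 FPKM in ileum on such a transcript. These floors cover counting error only.

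Most loci differed little between abomasum and ileum. Of the 13842 loci, 10023 (72.4%) lay within 2-fold of each other on the FPKM + 1 scale, and the median log2 ratio of abomasum to ileum was 0.00. The middle of the distribution ran from -0.58 at the 25th percentile to 0.50 at the 75th. In total 11973 loci reached an FPKM of 1 in both libraries, while 694 did so in abomasum alone and 1175 in ileum alone. Expression was thus shared for the great majority of the loci, with the larger one-sided set in ileum.

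The likeness of the pair depended on the loci used. Over 17422 loci with an FPKM of at least 1 in any of the 8 libraries, Pearson's r of log2(FPKM + 1) across loci was 0.851 for abomasum and ileum, the second highest of 28 pairs. Over the 13842 loci compared here it was 0.758, the sixth highest. On those loci ileum had an r of 0.798 with mammary gland and 0.756 with uterus, and abomasum had an r of 0.763 with mammary gland. The choice of loci above 1 FPKM in abomasum or ileum removes loci that are low in both, and it favours loci that differ between them. These are correlations across loci, which share library and depth and are not independent replicates.

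A locus was taken to separate the tissues where FPKM + 1 differed by at least 4-fold. This held for 492 loci higher in abomasum (3.55% of those compared) and 786 higher in ileum (5.68%). Together these were 1278 separating loci (9.23%), of which 61.5% were higher in ileum. With loci that lack an identifier included, the counts were 1126 in abomasum and 1044 in ileum, so the larger side changed. At 8-fold the sides were closer, with 227 loci higher in abomasum (1.64%) and 268 higher in ileum (1.94%). The excess on the ileum side therefore lay mostly between 4-fold and 8-fold.

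**Figure D1:**
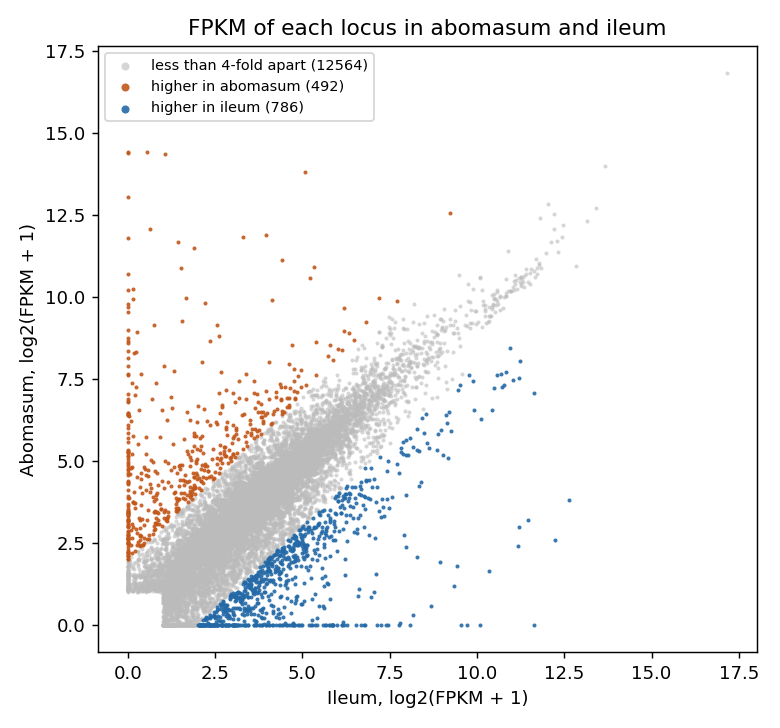
Each point is 1 of the 13842 loci, with log2(FPKM + 1) in ileum on the horizontal axis and in abomasum on the vertical axis, and colours mark the 492 loci higher in abomasum, the 786 higher in ileum and the 12564 less than 4-fold apart. The most abundant separating loci of abomasum lie near 14 on the vertical axis and at or near 0 on the horizontal axis, and the ileum side stops below 13.

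The share of separating loci grew with the level, in part by construction. On the FPKM + 1 scale no locus below 3 FPKM can reach 4-fold, and 0 of the 1857 loci of 1 to 3 FPKM did. A locus of 3 FPKM can do so only where the other library is listed at 0. Among 3835 loci whose higher value was 3 to 10 FPKM, 101 (2.63%) were higher in abomasum and 223 (5.81%) in ileum. Among 4497 loci of 10 to 30 FPKM the counts were 143 (3.18%) and 272 (6.05%), and among 2591 loci of 30 to 100 FPKM they were 134 (5.17%) and 179 (6.91%). Among 921 loci of 100 to 1000 FPKM they were 92 and 91, and among 141 loci of at least 1000 FPKM they were 22 and 21. The sides were therefore even from 100 FPKM upwards and uneven from 3 to 100 FPKM. The ileum library was the shallower of the pair, and the part of depth in these counts was not tested.

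The abomasum side was led by 4 loci of 20994 to 22254 FPKM, and the next most abundant separating locus had 14336. ENSBTAT00000017203, on chromosome 11 from 67283485 to 67291738, had an FPKM of 22248 in abomasum and was listed at 0 in ileum. ENSBTAT00000022857, on chromosome 11 from 67257758 to 67269135, had 21677 in abomasum and was also listed at 0 in ileum. Both were listed at 0 in 5 of the 6 other libraries, and nucleated blood cells held 3.62 and 3.39 FPKM. These 2 loci are neighbours, and each has its interval to itself. Another locus in the same stretch, starting at 67246030, had 200 FPKM in abomasum and 0.29 in ileum. All 3 loci compared in that stretch, whose ends were set by separating loci, were higher in abomasum.

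Another pair of neighbours lay on chromosome 1. The locus from 144176745 to 144180011 had an FPKM of 22254 in abomasum and 0.48 in ileum, and the locus from 144191000 to 144196766 had 20994 and 1.09. Their log2 ratios were 13.88 and 13.29. In the other libraries the first was listed at 2.96 FPKM in whole testes, at 30.6 in nucleated blood cells and at 0 elsewhere, and the second at 1.61 in nucleated blood cells and at 0 elsewhere. These 4 loci on chromosomes 11 and 1 were thus at similar levels in abomasum and at most 3.62 FPKM in the 7 other libraries, apart from the 30.6 FPKM of 1 of them in blood cells. The third locus of the chromosome 1 stretch, starting at 144219261, was far lower, with 15.4 FPKM in abomasum and 0.12 in ileum.

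Other abomasum loci among the 12 with the highest ratios were lower. On chromosome X, the locus from 148319908 to 148326780 had 3266 FPKM in abomasum and 1.73 in ileum, and mammary gland held 2176. It was therefore a locus of abomasum and mammary gland within this series. On chromosome 29, 2 loci in the interval from 51371105 to 51461985 had 4283 and 1216 FPKM in abomasum, against 0.55 and 0.11 in ileum and at most 0.92 in the other libraries. On chromosome 8, the locus from 349043 to 544502 had 985 FPKM in abomasum, 0.12 in ileum and at most 0.15 elsewhere. The loci on chromosomes 29 and 8 were thus below 1 FPKM in ileum and in all 6 other libraries.

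The ileum side was led by lower values. ENSBTAT00000009389, on chromosome 11 from 56528811 to 56531769, had an FPKM of 3171 in ileum and was listed at 0 in abomasum. It was listed at 1.97 in whole testes, 0.51 in mammary gland and 0 in the other 4 libraries. The locus on chromosome 7 from 73914461 to 73920515 had 746 FPKM in ileum, 5.67 in whole testes and 0 in abomasum and the other libraries. ENSBTAT00000062001, on chromosome 19 from 23213543 to 23249455, had 1078 FPKM in ileum and was listed at 0 in the 7 other libraries, but it shares its interval with another locus. All 3 were thus listed at 0 in abomasum and at most 5.67 FPKM in the other libraries.

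The most abundant of the leading ileum loci lies on chromosome 13 from 74208266 to 74274993 and names 5 transcripts. It had 6356 FPKM in ileum and 13.1 in abomasum, with 109 in rumen and 21.3 in whole testes. On chromosome 8, the locus from 76329357 to 76348121 had 2306 FPKM in ileum and 4.28 in abomasum, with 8.49 in whole testes and 5.02 in nucleated blood cells. On chromosome 27, the locus from 5483408 to 5541377 had 2348 FPKM in ileum and 6.87 in abomasum, with 85.6 in whole testes, and it shares its interval with another locus. In these loci abomasum held a low level, above that of several of the other libraries.

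The last of the leading loci were lower. The locus on chromosome 5 from 109933909 to 109940236 had 651 FPKM in ileum and 1.27 in abomasum. The locus on chromosome 3 from 104603593 to 104605588 had 414 FPKM in ileum and 0.49 in abomasum. Neither exceeded 1.46 FPKM in the 6 other libraries.

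**Figure D2:**
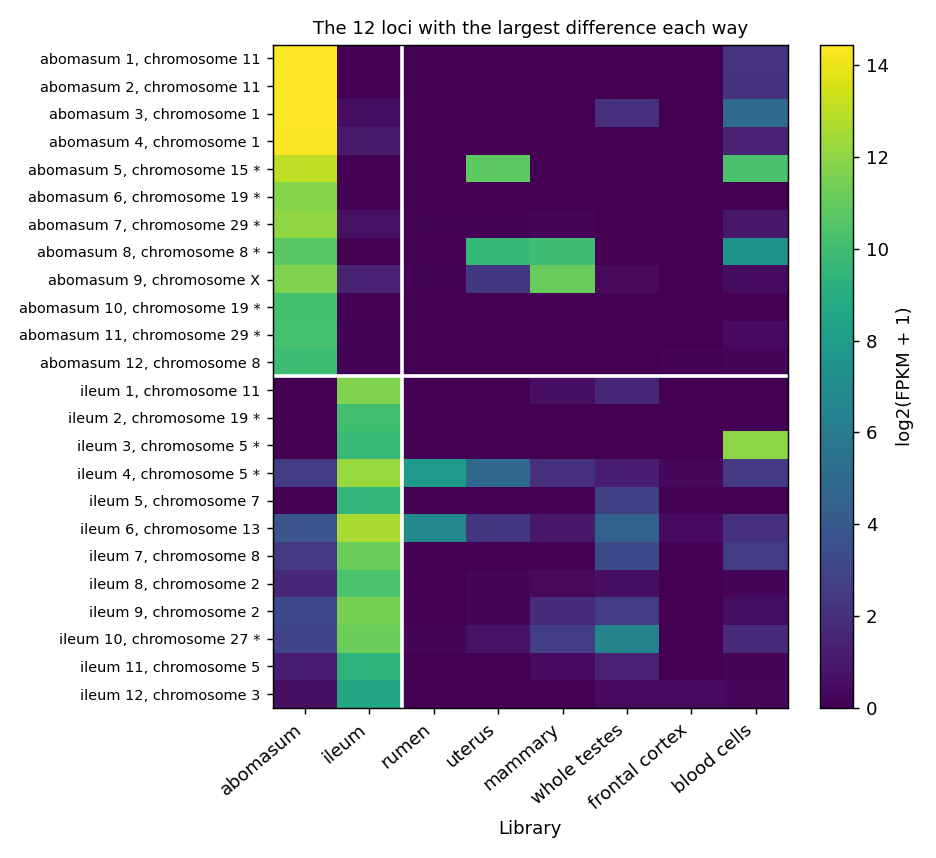
Rows are the 12 loci with the highest ratio on each side, columns are the 8 libraries, and colour gives log2(FPKM + 1); an asterisk marks a locus that shares its interval with other loci. The first 4 rows exceed 14 in abomasum and are at most 2.96 FPKM elsewhere, apart from values of up to 30.6 FPKM in nucleated blood cells, while row 9 of the abomasum side is also high in mammary gland.

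The listed position is not the length of the transcript, which limits how a value at or near 0 can be read. The table gives several loci the same interval where transcripts overlap, and this was the case for 172 of the 492 abomasum loci (35.0%), 270 of the 786 ileum loci (34.4%) and 31.7% of all loci compared. A short transcript inside a long interval passes the limit of 300 bases. On a transcript of 100 bases, 1 read is worth 357 FPKM in abomasum and 636 FPKM in ileum, against 0.871 and 1.55 FPKM on 300 bases. In the lower library, 106 abomasum loci (21.5%) and 158 ileum loci (20.1%) were listed at 0, against 3.74% of all loci compared. Leaving out every locus listed at 0 and every locus with a shared interval left 269 higher in abomasum and 436 higher in ileum, so the ileum share was 61.8%.

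Several of the leading values fall in this uncertain class. On chromosome 15, a locus in the interval from 1802549 to 1889711, which holds 4 loci, had 8501 FPKM in abomasum, 1767 in uterus, 1278 in nucleated blood cells and 0 in the other 5 libraries. On chromosome 8, a locus in the interval from 70831760 to 71212773, which holds 9 loci, had 1686 FPKM in abomasum, 1013 in mammary gland, 808 in uterus, 169 in nucleated blood cells and 0 in ileum and elsewhere. On chromosome 19, a locus in the interval from 25000944 to 25064462 had 3577 FPKM in abomasum and 0 in the 7 other libraries, and a locus in the interval from 15087261 to 15090020 had 1181 and 0. The number of reads behind these values is not known, so their order among the leading loci is uncertain.

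The levels in the 6 other libraries, which had no part in the choice of loci, set the sides apart. In bulk tissue, fewer cells of a type and less RNA per cell cannot be told apart. Of the ileum-higher loci, 329 (41.9%) had their highest other level in nucleated blood cells, against 21.0% of all loci compared and 11.2% of the abomasum-higher loci. Rumen held the highest other level for 142 abomasum-higher loci (28.9%), against 16.8% of all and 12.5% of the ileum-higher loci. Blood cells thus stood out on the ileum side. On the abomasum side rumen was raised, though not alone. Mammary gland held the highest other level at 74 of these loci (15.04%, against 7.50% of all) and uterus at 77 (15.7%, against 10.9%). Whole testes, which held the highest other level for 27.1% of all loci, did so for 15.7% of the abomasum-higher and 12.98% of the ileum-higher loci.

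Each of the other libraries reached the higher level of the pair at fewer separating loci than over all loci, except that blood cells on the ileum side were at their share over all loci. Loci were picked for a high level in 1 of the pair, so lower shares than over all loci are in part set by that choice. Over all loci, the level to reach was the higher of abomasum and ileum at each locus. Nucleated blood cells reached or exceeded the ileum level at 292 of the 786 ileum-higher loci (37.2%). They reached the higher level of the pair at 37.5% of all loci compared. The other 5 libraries reached the ileum level at 9.16% to 15.3% of the ileum-higher loci. Their shares for the higher level of the pair were 28.8% to 40.1% of all loci. Rumen reached or exceeded the abomasum level at 107 of the 492 abomasum-higher loci (21.7%), and the remaining 5 libraries did so at 4.07% to 9.15%. Over all loci, rumen reached the higher level of the pair at 34.3%. Blood cells exceeded rumen at 57.8% of the ileum-higher loci, 46.8% of all loci and 28.5% of the abomasum-higher loci. Blood cells were low on the abomasum side, where their median was 0.32 FPKM and 39.2% of the loci reached 1 FPKM, against a median of 8.88 FPKM and 78.2% over all loci. The other 5 libraries were also lower there, with 49.8% to 63.2% of the abomasum-higher loci at 1 FPKM or more, against 83.7% to 88.1% of all loci.

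The ileum-higher loci peaking in blood cells outside the pair were low in most other tissues. Their low level in abomasum and their high level in blood cells, above the 5 remaining libraries, follow from how they were picked. Over the 323 of them that reached 1 FPKM in blood cells, the median FPKM was 63.6 in blood cells, 24.7 in ileum, 6.29 in mammary gland and 2.90 in abomasum. It was 1.08 to 1.51 in rumen, whole testes, frontal cortex and uterus. The abomasum-higher loci peaking in rumen, 142 in number, had a median of 65.8 FPKM in rumen, 29.8 in abomasum, 4.52 in uterus, 4.42 in mammary gland, 1.79 in ileum and 0.44 in blood cells.

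The share of separating loci restricted to the pair depended on the limit. Of the abomasum-higher loci 52 (10.6%) and of the ileum-higher loci 71 (9.03%) were below 1 FPKM in all 6 other libraries, against 2.07% of all loci compared. These shares fell to 5.96% and 4.78% among loci with both values above 0 and rose to 23.4% and 18.7% at a limit of 5 FPKM. The abomasum level exceeded that of every other library at 289 abomasum-higher loci (58.7%), whereas ileum did so at 273 ileum-higher loci (34.7%). For all loci compared, the higher of the pair exceeded the 6 others at 17.2%, a lower share that the choice of loci in part sets. The higher library was at least 4-fold above all 6 others at 121 abomasum-higher loci and 122 ileum-higher loci, or 24.6% and 15.5%, against 2.48% of all. Most loci that separated the pair were hence also expressed in another tissue of the series.

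**Figure D3:**
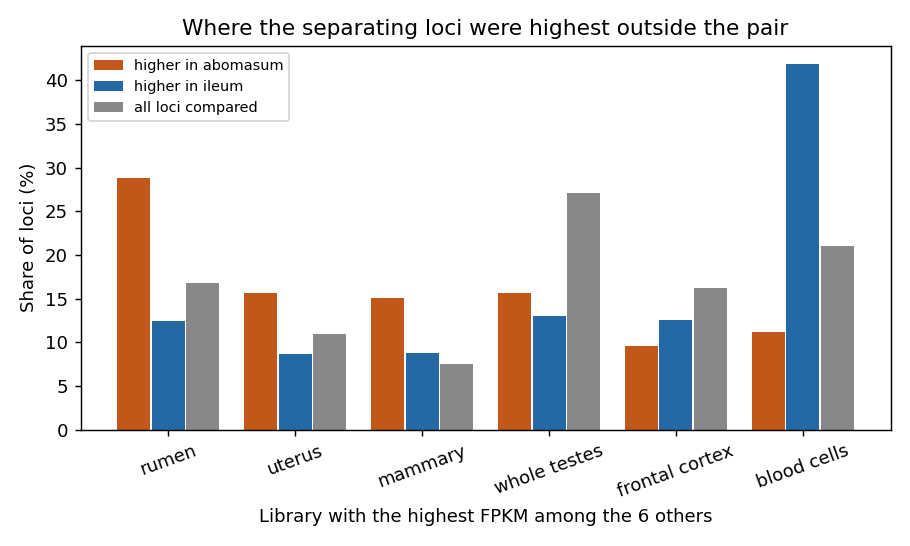
Bars give the share of loci, in percent, whose highest FPKM among the 6 other libraries was in the library named below, for the abomasum-higher, the ileum-higher and all loci compared. The ileum-higher bar reaches 41.9% in blood cells and the abomasum-higher bar 28.9% in rumen, above the shares of 21.0% and 16.8% over all loci. In mammary gland and uterus the abomasum-higher bars also exceed those of all loci.

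Some separating loci lay close to others of the same direction. A window was a run of at least 3 separating loci of 1 direction, each starting within 200 kilobases of the one before. Loci that share an interval count separately, so a window can lie within 1 interval, and other compared loci can lie between its members. A window begins and ends with a separating locus, so the share of its compared loci that separate is raised by construction. There were 46 such windows on the ileum side, with 184 loci (23.4% of the ileum-higher loci), and 21 on the abomasum side, with 67 loci (13.6%). Nucleated blood cells had the highest median of the 6 other libraries in 25 of the 46 ileum windows. In the other 21, each remaining library had it in 3 to 5. On the abomasum side rumen had it in 7 of the 21 windows and blood cells in 5. No like count was made over windows of all loci.

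The window with the most loci was on chromosome 4 from 113564399 to 114357974, where 15 of 19 loci compared were higher in ileum and 0 were higher in abomasum. Their log2 ratios ran from -3.35 to -2.15. The median FPKM was 233 in blood cells, 43.1 in ileum, 16.2 in mammary gland and 5.63 in abomasum, and at most 1.74 in the 4 remaining libraries. Blood cells were above ileum at 12 of the 15 loci. For example, the locus from 113910742 to 113941457 had 566 FPKM in blood cells, 60.5 in ileum and 6.85 in abomasum. The exceptions lay at both ends of the window, such as the locus starting at 113564399, with 502 FPKM in ileum, 60.5 in abomasum and 1.09 in blood cells.

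A second stretch of chromosome 4, from 106535195 to 106937751, held 8 ileum-higher loci among 10 compared. Blood cells exceeded ileum at all 8. The most abundant, from 106853030 to 106923607, had 1281 FPKM in blood cells, 381 in ileum, 137 in mammary gland and 45.3 in abomasum. The other 7 were at 5.53 to 27.9 FPKM in ileum and at most 4.37 in abomasum. Of the 8, 6 span under 1000 bases.

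On chromosome 23, which carries the major histocompatibility complex of cattle, the window from 25351283 to 26163627 held 9 ileum-higher loci among 10 compared. Of the 9, 5 were abundant in ileum and present in every library. The locus from 25584313 to 25592230 had 2404 FPKM in ileum, 1781 in blood cells, 625 in mammary gland, 264 in abomasum and 96.0 to 138 in the other 4 libraries. Ileum was the highest library at these 5 loci and blood cells the next. The remaining 4 loci were at 68.3 to 91.8 FPKM in ileum and at most 1.49 in the 6 other libraries, with up to 14.95 in abomasum. The window thus joined loci of broad expression with loci seen mainly in ileum.

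Further windows followed the blood pattern in part. On chromosome 21, from 34948953 to 35267979, 7 of 11 loci compared were higher in ileum, and blood cells exceeded ileum at 3 of them. The locus from 35135771 to 35137852 had 236 FPKM in ileum, 36.3 in abomasum and 26.99 in blood cells. On chromosome 7, from 17737516 to 18003965, 5 of 13 loci were higher in ileum, and the first had 30.2 FPKM in ileum, 36.7 in blood cells and 0.54 in abomasum. Blood cells exceeded ileum at 3 of the 5, and the last 2 had 0.34 and 2.34 FPKM in blood cells against 81.5 and 49.4 in ileum. On chromosome 15, from 29313736 to 29475723, 4 of 6 loci were higher in ileum and 1 was higher in abomasum. The 4 had medians of 79.8 FPKM in ileum, 244 in blood cells and 8.56 in abomasum.

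Other ileum windows had little signal in blood cells at most of their loci. On chromosome 19, from 38482724 to 39003556, 8 of 9 loci compared were higher in ileum. The first 7 were at 5.54 to 54.2 FPKM in ileum, at most 1.88 in abomasum and at most 0.95 in blood cells, and uterus held 5.41 to 34.5 FPKM. Uterus was the highest of the 6 other libraries at 6 of these 7 loci. The eighth, from 38697479 to 39003556, was unlike them, with 89.5 FPKM in blood cells, 20.1 in ileum, 4.75 in uterus and 2.93 in abomasum. On chromosome 4, from 69327760 to 69389937, 4 of 6 loci were higher in ileum, at 3.09 to 23.6 FPKM, with 0 to 2.61 in abomasum and 1.76 to 24.3 in uterus. Apart from that eighth locus, these were loci of low to moderate levels that were also listed in uterus.

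On chromosome 5, all 4 loci compared from 26161169 to 26206357 were higher in ileum, at 4.55 to 30.4 FPKM, and abomasum was listed at 0 at each. Here rumen was the library with the highest level at the first 2 loci, with 63.8 and 30.9 FPKM, and whole testes at the last, with 18.3. On chromosome 2, 4 of 6 loci from 133149365 to 133323729 were higher in ileum. The last 3 had 1311, 2846 and 287 FPKM in ileum, against 2.11, 8.22 and 0.24 in abomasum, and the other 6 libraries held at most 4.89. That window was therefore nearly confined to ileum among these 8 libraries.

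The abomasum windows with the most loci had high levels in rumen. On chromosome 10, from 65243157 to 65560055, 5 of 7 loci compared were higher in abomasum, with a median FPKM of 30.9 in abomasum, 1.10 in ileum and 170 in rumen. The locus from 65525530 to 65540482 had 331 FPKM in rumen, 19.8 in abomasum and 0.97 in ileum. On chromosome 3, all 4 loci compared from 17146699 to 17276325 were higher in abomasum, at 5.15 to 74.8 FPKM against at most 1.19 in ileum. At the second of these, from 17163356 to 17165408, rumen held 31149 FPKM and blood cells 4387. Abomasum was thus well above ileum in this window and far below rumen and blood cells at 3 of its 4 loci.

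A neighbouring stretch of chromosome 3, from 16679030 to 16894701, held 4 abomasum-higher loci among 13 compared. The locus from 16869280 to 16872942 had 4926 FPKM in rumen, 620 in abomasum, 472 in mammary gland and 1.93 in ileum. Ileum was the lowest of the 8 libraries there.

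**Figure D4:**
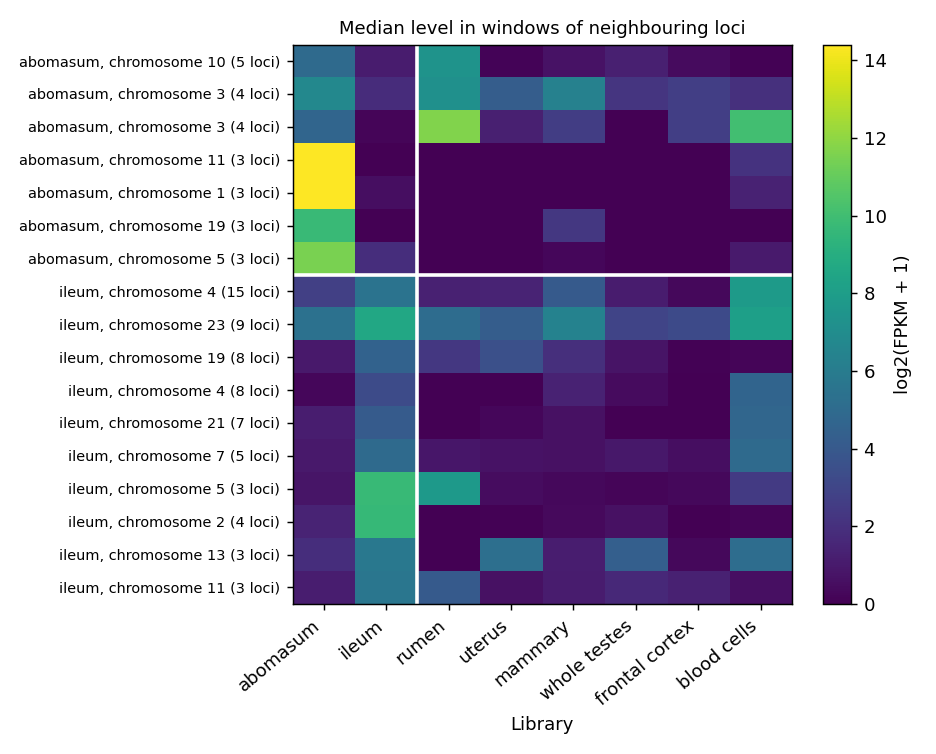
Rows are the 7 abomasum and 10 ileum windows with the most loci or the largest median differences, columns are the 8 libraries, and colour gives log2 of the median FPKM + 1 over the separating loci of the window. The ileum windows on chromosomes 4, 21 and 7 are brighter in blood cells than in ileum or alike, the window on chromosome 19 is brightest in ileum and uterus, and the abomasum windows on chromosomes 10 and 3 are brightest in rumen.

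A single interval held leading loci of both tissues. The interval on chromosome 5 from 44421169 to 44720998 contains 10 loci, 8 of them with an identifier. Of these, 3 were higher in abomasum, with 14336, 2921 and 1008 FPKM in abomasum against 32.7, 2.71 and 2.17 in ileum. Another 2 were higher in ileum, with 4791 and 845 FPKM in ileum against 5.04 and 0 in abomasum. The abomasum loci were at most 3.47 FPKM in the 6 other libraries. The ileum loci had partners elsewhere: the first, which names 5 transcripts, had 216 FPKM in rumen, and the second had 3831 in nucleated blood cells.

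Further loci of the same stretch extended the pattern. Of the other loci with an identifier, 2 were listed at 0 in all 8 libraries. Another locus of the interval had 1880 FPKM in blood cells, 164 in rumen, 66.3 in ileum and 16.9 in abomasum, short of the 4-fold limit with a log2 ratio of -1.91. Just before the interval, the locus from 44351615 to 44357569 had 1687 FPKM in rumen, 125 in ileum and 0.79 in abomasum. Loci in this stretch thus had their highest levels in different libraries, namely abomasum, ileum, blood cells or rumen. Reads from near-identical copies could be split among such loci by the authors' software, so the division within the interval is uncertain.

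Other intervals also held loci of opposite direction. Of 44 shared intervals with at least 2 separating loci, 10 had loci of both directions. On chromosome 11, from 47027027 to 47174628, 1 locus had 872 FPKM in ileum and 194 in abomasum, and another had 10.6 in abomasum and 0.94 in ileum. On chromosome 2, from 122722829 to 122889686, 1 locus had 121 FPKM in abomasum and 22.7 in ileum, and another had 54.8 in ileum and 8.46 in abomasum. On chromosome 29, from 1056624 to 1121206, the values were 401 against 0 and 166 against 0 in opposite directions, and such values rest on transcripts of unknown length.

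The separating loci took different shares of the transcripts. Leaving out mitochondrial loci, the abomasum-higher loci held 26.95% of the summed FPKM in abomasum, and the ileum-higher loci held 13.7% in ileum. In the opposite library these sets held little, with 0.576% of ileum FPKM in abomasum-higher loci and 0.944% of abomasum FPKM in ileum-higher loci. The loci were picked as at least 4-fold lower there, so small shares in the opposite library follow from that choice. The shares in their own library are in part set by it too. The 5 most abundant loci outside the mitochondrion held 14.8% of the FPKM in abomasum, and 4 of them were abomasum-higher. In ileum the 5 most abundant held 7.09%, and 1 of them was ileum-higher. The mitochondrial genome held 2 of the loci compared, which took 14.2% of the summed FPKM in abomasum and 18.2% in ileum. The larger had a log2 ratio of -0.34, and the smaller was ileum-higher, with 700 FPKM in ileum and 143 in abomasum. In rumen and in frontal cortex both stood at 0, so a value of 0 in those libraries can be a failed estimate.

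By chromosome, chromosome 4 had the highest share of ileum-higher loci, 45 of 422 (10.7%), and chromosome 23 the next, 40 of 433 (9.24%), against 5.68% over all loci. The chromosome 4 count includes the windows described above. The abomasum-higher share on these chromosomes was 3.32% and 2.77%, against 3.55% over all loci.

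The 4-fold limit passed through a continuous range of ratios. The abomasum-higher locus nearest to it, on chromosome 8, had 12.4 FPKM in abomasum and 2.34 in ileum, and the nearest locus left out, on chromosome 4, had 16.3 and 3.34. On the ileum side, the nearest locus inside, on chromosome 25, had 25.9 FPKM in ileum and 5.71 in abomasum, and the nearest outside, on chromosome 7, had 17.4 and 3.60.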

How the data were processed

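RNA-Seq of 8 cattle tissues, 1 library each, was analysed from 1 deposited table. The authors filtered the reads, aligned them to UMD3.1 with TopHat2 (2.0.13, per the submitters' processing notes) and estimated the level of each transcript with the default settings of Cufflinks. The values the authors deposited are FPKM, scaled between libraries by that software. The authors' own fold changes, test statistics and p-values for each pair of tissues are also in the table and were not used. Tissues were taken from the labels, and library names in the table equal the sample titles. The FPKM of a locus was the same in all pairs of tissues.

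Ratios are log2 of FPKM + 1 in abomasum over ileum, a scale that understates differences of low loci (python 3.11.15, pandas 2.3.3, numpy 2.4.6). Loci at or past 4-fold were counted with no test, since each tissue has 1 library. Starts are given 1-based. Positions are those of the table's interval, which can hold several loci.

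Short loci lacking an identifier (88 to 130 bases) gave the depth, using fragment lengths with a mean of 200 and an SD of 80 bases and a lower limit of 87. Values within 0.03 of a whole read were called whole, which held for 99.8% of 519 loci in abomasum and 100.0% of 49 in ileum. Only 12 of the 49 reached 3 reads, against 516 of the 519, so the ileum depth, its floors and the ratio of depths are the less certain. This depth includes the scaling of the deposited values and is approximate. The scripts were tested on simulated data.

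Of the identifiers in the table, 0 matched RefSeq genes (ARS-UCD2.0 assembly), so gene lists and cell type markers planned for the comparison are not analysed here. Loci named were, by rule, the 12 with the highest ratio each way (identifiers for 2 each way, positions for the others) and windows of neighbouring loci. Which windows to describe in full, the intervals of both directions and the single loci in them were picked with their values in view. The members and lists were chosen with earlier results of these data known. Alternatives covered the pseudocount, filters on level and span, the fold, scaling, loci without an identifier and ambiguous names.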

Additional observations from a re-analysis of the deposited data

Results flagged for a closer look

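Loci without an identifier had no part in the comparison and also separated the tissues. Of 3552 such loci that span at least 300 bases and reach 1 FPKM in abomasum or ileum, 634 (17.8%) were at least 4-fold higher in abomasum and 258 (7.26%) were at least 4-fold higher in ileum. They were listed because they hold signal in data outside the comparison. The direction of the excess was opposite to that of the loci with an identifier. Leading abomasum-higher loci, on chromosomes 1, X and 15, were each listed at the same 66583 FPKM in abomasum and at 0 in every other library. The reason for this repeated value was not tested, and how many of the 634 rest on such values is not known. In the lower library, 437 of the 634 and 173 of the 258 were listed at 0. An interval of its own was held by 399 of the 634 and 200 of the 258. Their median level was 10.6 FPKM in abomasum and 7.31 FPKM in ileum. Blood cells held the highest other level at 95 of the 258 (36.8%), against 22.2% of the 3552. Rumen held it at 93 of the 634 (14.7%), against 13.01% of the 3552, and uterus at 113 (17.8%), against 14.7%. Mammary gland held it at 89 (14.04%), against 9.40%. Without the loci listed at 0 in all 6 other libraries (153 of the 634), the rumen share was 19.3%, against 13.8%, and that of uterus 23.5%, against 15.6%. That of mammary gland was 18.5%, against 9.97%. The abomasum library was the deeper one by 1.78 times, and the part of depth in these counts was not tested.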

How the results depend on the processing

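No paired analysis was possible because abomasum and ileum were 1 library each. Counts and shares that moved by less than 1.5 times, and r that moved by less than 0.05, are said to hold. Of 28 alternative counts of separating loci 17 held, and the ileum side was the larger in 14 of the 15 settings, the reported one included. Some of these settings could move the counts little or not at all. Dropping the limit of 1 FPKM could change no count, since a 4-fold difference on FPKM + 1 needs at least 3 FPKM. Scaling to the same median used a factor of 0.999. A pseudocount of 0.1 gave 790 loci higher in abomasum and 1360 in ileum, since low loci then reach 4-fold. A fold of 2 gave 1634 and 2185, and a fold of 8 gave 227 and 268, by construction. All loci, with or without an identifier, gave 1126 and 1044, so that 48.1% of the separating loci were higher in ileum, the exception in direction. Loci with an interval of their own, a setting chosen after seeing the data, gave 320 and 516, and of those with both values above 0 as well 269 and 436, from fewer loci. The r of the pair was 0.676 with a pseudocount of 0.1 and 0.851 over loci expressed in any library, the latter added later. The share of loci below the limit in all 6 other libraries was 23.4% for abomasum and 18.7% for ileum at a limit of 5 FPKM, 17.6% and 16.04% at a fold of 8, and 5.96% and 4.78% with both values above 0, added later. The shares with rumen or blood cells highest held in the 3 settings run (a fold of 8, both values above 0, and an interval of their own). With 1 library per tissue, none of these values says how animals vary.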

Other observations

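Most of the abundant separating loci had some level outside the pair. Of 22 abomasum-higher loci with at least 1000 FPKM in abomasum, 2 were listed at 0 in all 6 other libraries, and nucleated blood cells held the highest other level at 11, against 27 of all 141 loci compared at that level (19.1%). At 3 of the leading loci this was only 3.62, 3.39 and 1.61 FPKM. Of 21 ileum-higher loci with at least 1000 FPKM in ileum, 1 was listed at 0 in all 6. Rumen held the highest other level at 8 of the 21 (38.1%), against 87 of the 141 (61.7%). Whole testes held it at 6 (28.6%), against 4.96% of the 141, and blood cells at 5 (23.8%), against 19.1%. The other levels were below 10 FPKM in all 6 libraries at 12 of the 22 and 7 of the 21.

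A zero at a widely expressed locus was rare in the pair. Of 3467 loci with at least 10 FPKM in the 7 libraries other than ileum, 1 was listed at 0 in ileum. It lies on chromosome 11 from 104181964 to 104185616 and had 79.6 to 475 FPKM elsewhere, with 118 in abomasum. Of 3507 such loci for abomasum, 0 were listed at 0 there.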
